A study of Mus musculus with 9 samples.

Results

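The genes described here are 34 transcripts of the neutrophil lineage, among them the proteins of neutrophil granules, cell surface receptors and markers, and genes switched on late in neutrophil maturation. They were taken by gene symbol from a deposited table of 55335 mouse genes, with 1 entry for each symbol. Of the 34 genes, 31 reached 1 FPKM in at least 3 of the 9 libraries and entered a test that ran over 11721 genes. The remaining 3, Elane, Prtn3 and Mpo, did not reach that level and are described by their values alone. FPKM is the number of sequenced fragments corrected for transcript length and for how many fragments its library had mapped.

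The libraries came from mouse peritoneal macrophages, the phagocytes that reside in the abdominal cavity, kept in RPMI 1640 for 1 h and then stimulated for 4 h. The LPS+EtOH group received lipopolysaccharide (LPS, a bacterial cell wall component sensed through TLR4) at 1 µg/mL together with 5% ethanol. The LPS+CPZ group received LPS at 1 µg/mL together with 100 µM of a compound that the labels write as CPZ and do not spell out. The LPS group received LPS at 1 µg/mL alone and is the control of the study. Every group is represented by 3 libraries. Each was made from RNA pooled from 3 samples, which the labels describe as biological replicates without saying whether they were separate animals or cultures. The p-values below therefore measure the spread between pools. Strain, sex and age of the mice, and how the cells were purified, are not given in the sources used here. All groups share the LPS stimulus: cells without LPS, and cells given only the solvent of CPZ, were not analysed here.

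Neutrophils store their antimicrobial proteins in granules that are filled in sequence while the cell matures in the bone marrow. Primary granules, with myeloperoxidase and the elastase family of proteases, are made first, in promyelocytes, and their genes are silent in mature cells. Specific granules, with lactoferrin, cathelicidin and neutrophil gelatinase-associated lipocalin, follow under the transcription factor C/EBPε. The calcium-binding proteins S100A8 and S100A9, the receptors for bacterial formyl peptides and the surface antigen Ly6G mark late and circulating cells. Neutrophils are rare in the unchallenged peritoneum and enter it in numbers during inflammation. Several of the genes, such as Lcn2, Slpi and Trem1, are also transcribed by macrophages after LPS. In bulk RNA, fewer cells of a type and less RNA per cell cannot be told apart.

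Promoter sequence was available in the RefSeq table (GRCm38.p6) for 28 of the 34 genes. The 250 bases before the annotated start were searched on both strands for TTNNGNAA, a short form of the site bound by C/EBP factors, and for GAGGAAG, a form of the site bound by the myeloid factor PU.1. These patterns can overlap. TTNNGNAA was present in 20 of the 28 windows (71.4%), against 36.9% of all 27025 promoter windows in the table. GAGGAAG was present in 9 of the 28 windows (32.1%), against 10.4% of all windows. A match describes the letters of the window and is not evidence of binding. Starts in RefSeq and GENCODE M21 differ for some genes. The windows of Lcn2, Slpi and Pglyrp1, for example, lie within the GENCODE gene and still count in these shares. The 6 windows below belong to some of the genes described later: S100a9 and S100a8, the most abundant pair, Ngp and Retnlg, which showed large differences between the groups, Ly6g, which had its highest level in LPS+CPZ, and Trem1, which had its lowest there. All 6 hold a match to TTNNGNAA, and windows without one, such as those of G0s2 and Camp, are not printed. Each is printed 5′ to 3′ on the strand of its gene and ends before the first base of the gene in GENCODE M21, and capitals mark the matches to TTNNGNAA on either strand. Matches downstream of the printed stretch are not shown.
S100a9 (chr3:90695722-90695971, minus strand): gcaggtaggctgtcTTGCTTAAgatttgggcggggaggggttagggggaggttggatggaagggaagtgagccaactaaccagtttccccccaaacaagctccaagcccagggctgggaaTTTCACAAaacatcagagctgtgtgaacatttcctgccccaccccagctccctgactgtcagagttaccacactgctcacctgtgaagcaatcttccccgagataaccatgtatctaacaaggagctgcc
S100a8 (chr3:90668821-90668977, plus strand): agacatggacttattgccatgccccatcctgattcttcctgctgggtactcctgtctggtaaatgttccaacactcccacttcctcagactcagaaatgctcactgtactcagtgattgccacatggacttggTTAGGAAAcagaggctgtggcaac
Ngp (chr9:110419558-110419746, plus strand): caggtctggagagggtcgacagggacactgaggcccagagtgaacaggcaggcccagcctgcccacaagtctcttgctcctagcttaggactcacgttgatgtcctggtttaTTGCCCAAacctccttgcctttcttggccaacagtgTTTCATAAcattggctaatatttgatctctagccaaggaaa
Retnlg (chr16:48872358-48872607, plus strand): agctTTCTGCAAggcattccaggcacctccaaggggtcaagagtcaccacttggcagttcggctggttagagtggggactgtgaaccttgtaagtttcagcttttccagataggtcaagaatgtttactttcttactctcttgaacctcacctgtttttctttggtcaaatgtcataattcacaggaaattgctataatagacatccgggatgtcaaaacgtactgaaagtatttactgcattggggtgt
Ly6g (chr15:75155011-75155239, plus strand): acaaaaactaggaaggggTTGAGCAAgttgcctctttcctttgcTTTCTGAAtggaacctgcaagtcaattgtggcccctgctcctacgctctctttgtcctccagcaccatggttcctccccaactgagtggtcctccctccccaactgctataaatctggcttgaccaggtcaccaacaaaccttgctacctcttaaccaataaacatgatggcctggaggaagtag
Trem1 (chr17:48232489-48232738, plus strand): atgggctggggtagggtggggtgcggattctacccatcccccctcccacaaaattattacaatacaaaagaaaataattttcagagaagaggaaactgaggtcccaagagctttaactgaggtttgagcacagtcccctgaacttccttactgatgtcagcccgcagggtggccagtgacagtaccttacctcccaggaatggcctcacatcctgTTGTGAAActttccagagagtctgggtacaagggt

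Total FPKM per library ranged from 302126 to 363356, and because the deposited values are not counts, the depth of each library is unknown and no counting interval is given. Genes at or above 1 FPKM numbered 8024 to 8366 in LPS+EtOH, 10135 to 10625 in LPS+CPZ and 11096 to 11266 in LPS. The macrophage markers Adgre1, Cd68 and Csf1r were present in every group, with Adgre1 (F4/80) at 89.0 ± 9.48 FPKM in LPS+EtOH, 88.5 ± 14.0 in LPS+CPZ and 141 ± 8.01 in LPS (mean ± SD, n = 3 libraries, as for all such values below). The 10 macrophage markers summed to 2663 to 2989.6 FPKM in LPS+EtOH, 1069.8 to 1261 in LPS+CPZ and 1648 to 2111 in LPS. Cd14, the LPS co-receptor, made up most of the LPS+EtOH sum at 2177 ± 221 FPKM, and of the 9 macrophage markers tested 2 were higher and 6 lower in LPS+EtOH than in LPS, with a median log2 change of -1.40 (4 higher and 4 lower when scaled to the median ratio over genes). Over all genes tested in that comparison 19.0% were higher and 64.6% lower (39.9% and 40.1% with that scaling). Markers of other cells were also present, and several moved with the groups. The 6 erythroid markers took 0.172 to 0.222% of all FPKM in LPS+EtOH, 0.0454 to 0.0975% in LPS+CPZ and 11.5 to 29.6% in LPS, with the highest share in LPS replicate 3; Slc4a1, the red cell anion exchanger, was listed at 0 in every LPS+EtOH and LPS+CPZ library. The 6 B cell markers summed to 36.1 to 56.3 FPKM in LPS+EtOH, 142 to 189.7 in LPS+CPZ and 461 to 695 in LPS. The 6 T and NK cell markers summed to 0.352 to 0.708 FPKM in LPS+EtOH, 6.76 to 13.5 in LPS+CPZ and 27.4 to 31.9 in LPS. The 6 markers of large peritoneal macrophages summed to 4.11 to 6.25, 21.1 to 35.4 and 101 to 132 FPKM in LPS+EtOH, LPS+CPZ and LPS. The 6 monocyte markers summed to 114 to 139.6 FPKM in LPS+EtOH, 56.1 to 85.4 in LPS+CPZ and 112 to 136 in LPS. Plac8, Chil3 and Ly6c2 carried those sums, while Ccr2, F13a1 and Vcan were at 0.0402 ± 0.00705, 0.0703 ± 0.0474 and 0.0875 ± 0.0615 FPKM in LPS+EtOH, against 1.12 ± 0.408, 4.09 ± 1.78 and 3.69 ± 2.33 in LPS. The 5 eosinophil markers stayed under 5 FPKM in sum in every library, with Epx listed at 0 in all 9, and the 6 mast cell and basophil markers summed to 12.2 to 29.2, 8.66 to 23.5 and 29.9 to 53.2 FPKM in LPS+EtOH, LPS+CPZ and LPS. The part of these cells in the results below was not tested.

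Neutrophil transcripts were present in every group. The 34 genes together held 16.7 to 17.4% of all FPKM in LPS+EtOH, 3.58 to 3.97% in LPS+CPZ and 2.19 to 2.66% in LPS. S100a8 and S100a9 alone made up 11.8 to 12.5% of all FPKM in LPS+EtOH, 1.68 to 1.91% in LPS+CPZ and 1.19 to 1.47% in LPS. Ranked by FPKM within each library, S100a9 was first in all 3 LPS+EtOH libraries, at ranks 6, 8 and 9 in LPS+CPZ and at ranks 7, 8 and 6 in LPS. S100a8 held rank 4 in all 3 LPS+EtOH libraries, ranks 9, 12 and 10 in LPS+CPZ and ranks 29, 39 and 30 in LPS. Of the 31 genes tested, 29 had their highest mean in LPS+EtOH and 2, Ly6g and Slpi, in LPS+CPZ. The lowest mean was in LPS+CPZ for 18 genes and in LPS for 13. How often all genes tested had their highest or lowest mean in each group was not counted.

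**Figure D1:**
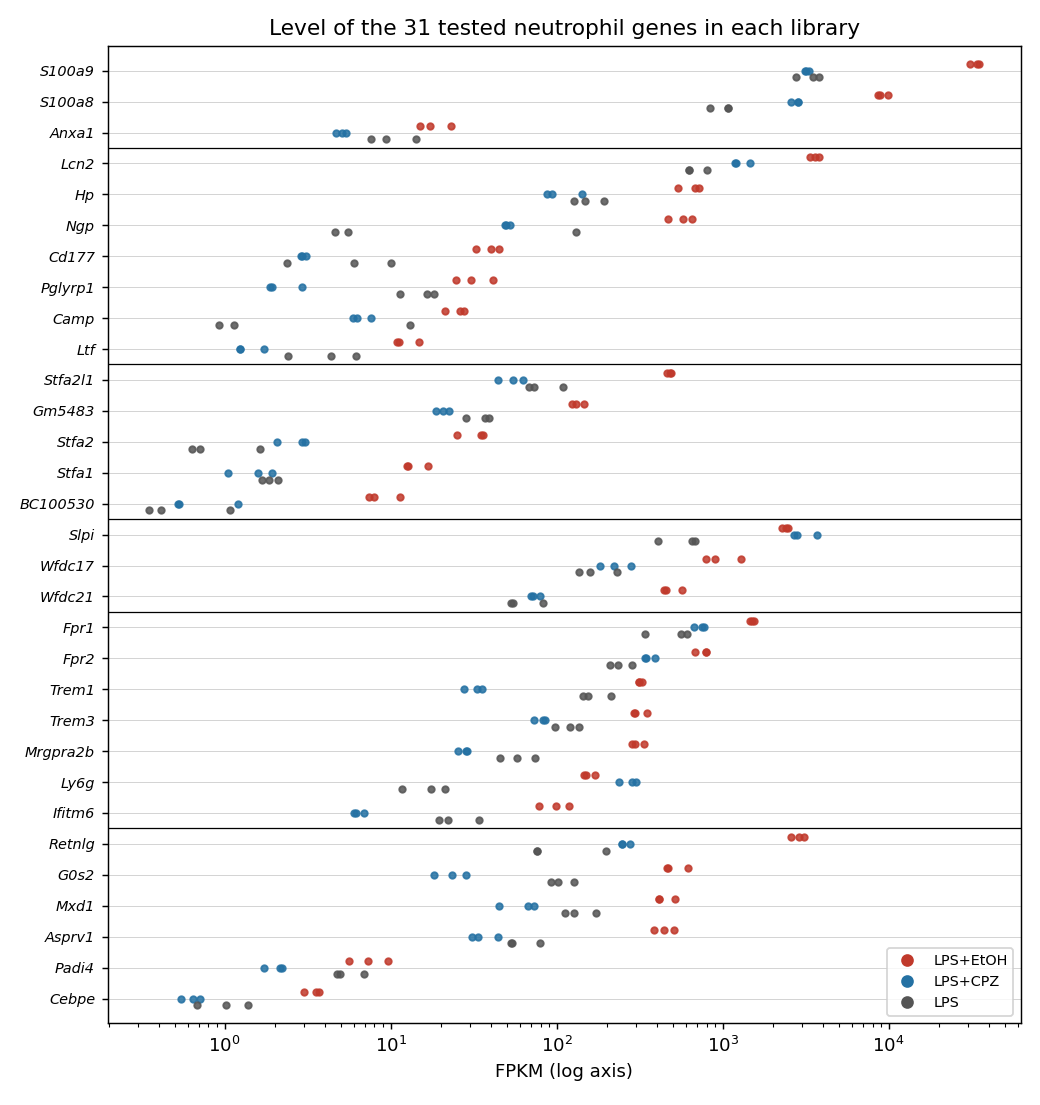
FPKM (log axis) of the 31 tested neutrophil genes, 1 point per library, coloured by group. For 29 genes the mean is highest in LPS+EtOH, with overlapping points in Padi4, while for Ly6g and Slpi the LPS+CPZ mean is; within LPS, Ngp and Camp show 1 library far above the other two.

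The primary granule genes were close to absent in all 3 groups. Elane (neutrophil elastase) was listed at 0 in 7 of the 9 libraries and did not exceed 0.0322 FPKM. Prtn3 (proteinase 3) had 0.0816, 0.0644 and 0.0531 FPKM in LPS+EtOH, 0.120, 0.109 and 0.156 in LPS+CPZ and 0, 0.0980 and 0.0147 in LPS. Mpo (myeloperoxidase) had 0.00889, 0 and 0.0214 FPKM in LPS+EtOH, 0.0410, 0.0369 and 0.0447 in LPS+CPZ and 0.0162, 0.0330 and 0 in LPS. Their sum was 0.0644 to 0.121 FPKM in LPS+EtOH, 0.161 to 0.201 in LPS+CPZ and 0.0147 to 0.131 in LPS, and no fold is given at these levels. An entry of 0 in a table of this kind can also be a failed estimate.

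The first comparison asked what ethanol added to LPS-treated cells. Of the 31 genes tested, 30 were higher in LPS+EtOH than in LPS, none was lower, and Padi4 did not pass the test (limma on log2(FPKM + 1), two-sided, Benjamini-Hochberg adjustment over all 11721 genes, threshold 0.05). Over all genes tested, 19.0% were higher and 64.6% were lower. The median log2 change of the 31 genes was 2.37, against -0.82 over all genes tested. The ratio of the group means lay between 1.37 for Padi4 and 32.3 for Stfa2, with a median of 4.99. It was at least 2 for 28 genes and at least 10 for 4, and how many of all genes reached these ratios was not counted. In 30 genes every LPS+EtOH library lay above every LPS library, which held for 19.5% of all genes tested; 65.3% lay wholly below.

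S100a8 and S100a9 encode the subunits of calprotectin, the calcium- and zinc-binding protein that fills the neutrophil cytosol, and lie close together on chromosome 3. S100a9 stood at 31084, 35025 and 34150.5 FPKM in LPS+EtOH, against 3519, 2759 and 3828 FPKM in LPS. All 3 ethanol libraries lay far above the LPS libraries, and the means differed 9.92-fold (log2 change 3.32 ± 0.18 (SE), adjusted p = 8.46e-08). S100a8 had 8649, 8900.0 and 9875 FPKM in LPS+EtOH, against 1073, 835 and 1077 FPKM in LPS, a 9.18-fold difference (log2 change 3.21 ± 0.16 (SE), adjusted p = 6.52e-08). Anxa1 encodes annexin A1, a calcium-dependent phospholipid-binding protein that restrains neutrophil entry into tissue, and it moved less. It had 15.1, 17.2 and 23.0 FPKM in LPS+EtOH, against 14.3, 7.62 and 9.37 FPKM in LPS, so that the lowest ethanol library was only slightly above the highest LPS library (log2 change 0.79 ± 0.21 (SE), adjusted p = 0.00476).

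All 7 specific granule genes were higher in LPS+EtOH, with a median log2 change of 2.40. Lcn2 encodes lipocalin 2, which binds bacterial siderophores, and had 3381, 3608 and 3788 FPKM in LPS+EtOH, against 624, 631 and 801 FPKM in LPS (log2 change 2.40 ± 0.16 (SE), adjusted p = 2.51e-07). Ltf encodes lactoferrin, an iron-binding granule protein, and was a weakly expressed member with 10.9, 14.7 and 11.2 FPKM in LPS+EtOH, against 4.36, 2.40 and 6.20 FPKM in LPS (log2 change 1.38 ± 0.24 (SE), adjusted p = 2.67e-04). Both genes had groups that did not overlap, although their levels differed by more than 100 times. Hp (haptoglobin, the haemoglobin-binding plasma protein that neutrophils also store) averaged 646 ± 94.0 FPKM in LPS+EtOH, against 156 ± 33.6 in LPS. Cd177, a surface glycoprotein kept in specific granules, averaged 39.5 ± 6.18 FPKM in LPS+EtOH, against 6.18 ± 3.86 in LPS, and the log2 changes of Hp and Cd177 were 2.06 and 2.64. Pglyrp1, a peptidoglycan recognition protein, had the smallest rise of the 7, at 24.6, 30.3 and 41.2 FPKM in LPS+EtOH, against 18.3, 11.4 and 16.5 FPKM in LPS (log2 change 1.00 ± 0.22 (SE), adjusted p = 0.00134).

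Ngp and Camp encode granule proteins of the cathelicidin and cystatin-related family, and Camp is the precursor of the antimicrobial peptide CRAMP. Ngp had 470.4, 656 and 578 FPKM in LPS+EtOH, against 4.62, 5.56 and 131 FPKM in LPS. Camp had 21.2, 27.8 and 26.2 FPKM in LPS+EtOH, against 0.920, 1.14 and 13.02 FPKM in LPS. In both genes LPS replicate 3 stood far above the other LPS libraries and still below every LPS+EtOH library. The log2 change was 5.06 ± 0.93 (SE), adjusted p = 4.19e-04, for Ngp and 2.75 ± 0.59 (SE), adjusted p = 0.00129, for Camp, with standard errors well above the 0.16 of Lcn2. Against the mean of LPS replicates 1 and 2 alone, the fold was 112 for Ngp and 24.4 for Camp, whereas against all 3 it was 12.1 and 4.99.

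LPS replicate 3 stood apart in some of the other genes too. It was at least 2 times the mean of the other LPS libraries in 6 of the 31 genes tested, and in 1.57% of all 11721 genes tested. The 6 were Ngp (25.7 times), Camp (12.7), BC100530 (2.81), Retnlg (2.61), Stfa2 (2.43) and Cd177 (2.40). The other specific granule genes, Lcn2, Hp, Pglyrp1 and Ltf, were at 1.28, 1.40, 1.11 and 1.83 times. Against LPS replicates 1 and 2 alone, the ethanol fold of BC100530 was 23.3 in place of 14.5. The library was not high throughout, since Ly6g, Slpi and Cebpe were at 0.605, 0.608 and 0.572 times the other LPS libraries. The same library was high in 2 granule and membrane genes outside the set: Mmp8, the neutrophil collagenase, had 4.62, 4.51 and 27.5 FPKM in the LPS libraries, and Itgb2l, an integrin beta 2-like subunit, had 1.03, 0.794 and 5.98 FPKM. LPS replicate 3 also had the highest erythroid share, 29.6% of its FPKM, against 16.8% and 11.5% in LPS replicates 1 and 2. The part of those erythroid transcripts in these values was not tested. The median coefficient of variation over the 31 genes was 13.5% in LPS+EtOH, 12.1% in LPS+CPZ and 26.2% in LPS.

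**Figure D2:**
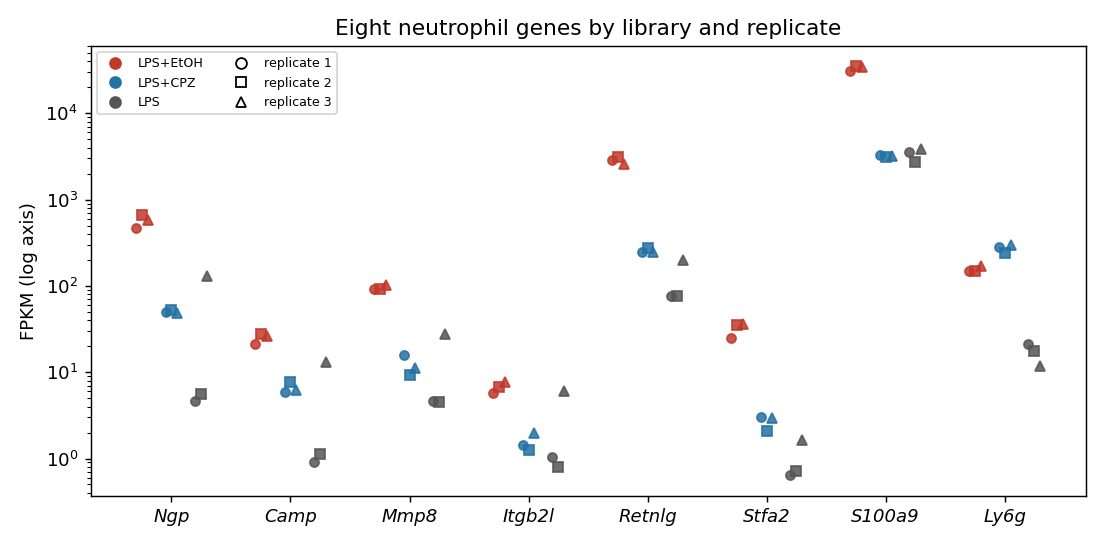
FPKM (log axis) of 8 neutrophil genes in each library, with replicate numbers marked and groups in separate colours. LPS replicate 3 lies apart from LPS replicates 1 and 2 in Ngp, where it had 131 FPKM against 4.62 and 5.56, and in Camp and Mmp8, and not in S100a9.

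The stefin A genes encode small cysteine protease inhibitors of the cystatin family, encoded in a cluster on chromosome 16, and all 5 were higher in LPS+EtOH (median log2 change 2.53). Stfa2 had 25.2, 35.3 and 36.1 FPKM in LPS+EtOH, against 0.640, 0.710 and 1.64 FPKM in LPS, the largest ratio of means among the 31 genes, 32.3-fold, from a level close to the 1 FPKM that was added before taking logs (log2 change 4.07 ± 0.21 (SE), adjusted p = 7.03e-08). Stfa2l1 was the most abundant of the 5 and averaged 476 ± 13.2 FPKM in LPS+EtOH, against 83.4 ± 21.9 in LPS (log2 change 2.53 ± 0.19 (SE), adjusted p = 4.49e-07). BC100530, Stfa1 and Gm5483 rose by log2 changes of 2.62, 2.37 and 1.92. Transcripts of these genes are close copies: Stfa1 and BC100530 were 96.9% identical over 618 aligned bases, Stfa2 and Stfa2l1 96.5% over 367. Gm5483 was 94.6% identical over 408 bases to 2010005H15Rik, a gene outside the 5. The split of fragments between such copies is therefore uncertain, and the sum of the 5, 650.2 to 691 FPKM in LPS+EtOH against 102 to 151 in LPS, is free of it only for the first 2 pairs.

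The 3 genes with whey acidic protein domains, which encode secreted protease inhibitors, were also all higher in LPS+EtOH. Slpi, the secretory leukocyte protease inhibitor that blocks neutrophil elastase, had 2289, 2393 and 2468 FPKM in LPS+EtOH, against 684, 651 and 406 FPKM in LPS (log2 change 2.07 ± 0.22 (SE), adjusted p = 5.44e-06). Wfdc17 averaged 994 ± 260.1 FPKM in LPS+EtOH, against 176 ± 49.8 in LPS, and Wfdc21 averaged 490.0 ± 70.3 FPKM in LPS+EtOH, against 63.5 ± 16.7 in LPS. Their log2 changes were 2.50 and 2.95.

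Of the 7 surface genes, all were higher in LPS+EtOH, with a median log2 change of 1.64. Ly6g, the antigen used to identify mouse neutrophils, had 147, 150.1 and 169.8 FPKM in LPS+EtOH, against 21.2, 17.6 and 11.8 FPKM in LPS (log2 change 3.17 ± 0.19 (SE), adjusted p = 1.48e-07). Fpr1 and Fpr2, the receptors for bacterial formyl peptides and related ligands, averaged 1503 ± 46.5 FPKM in LPS+EtOH, against 505 ± 144 in LPS, and 758 ± 63.3 FPKM in LPS+EtOH, against 243 ± 39.4 in LPS. These rises were smaller than that of Ly6g, with log2 changes of 1.61 and 1.64. Trem1 and Trem3, receptors that signal through DAP12 and amplify inflammatory responses, had log2 changes of 0.92 and 1.41. Mrgpra2b, a MAS-related G protein-coupled receptor found in mouse neutrophils, had 296, 335 and 284 FPKM in LPS+EtOH, against 57.3, 45.5 and 73.7 FPKM in LPS (log2 change 2.38). Its transcript is 99.8% identical to that of Mrgpra2a over 1236 bases, so the values of both are uncertain; Mrgpra2a averaged 209.5 ± 21.6 FPKM in LPS+EtOH, against 43.9 ± 9.87 in LPS. Ifitm6, of the interferon-induced transmembrane family, averaged 98.8 ± 20.2 FPKM in LPS+EtOH, against 25.4 ± 7.77 in LPS (log2 change 1.94).

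Among the late genes, Retnlg, which encodes resistin-like gamma, had 2882, 3083 and 2595 FPKM in LPS+EtOH, against 76.5, 76.0 and 199 FPKM in LPS (log2 change 4.75 ± 0.31 (SE), adjusted p = 2.29e-07). The ratio of its means was 24.3-fold, or 37.4-fold without LPS replicate 3, and no LPS library came within 10 times of an ethanol library. Asprv1, a retroviral-like aspartic protease, averaged 445 ± 60.1 FPKM in LPS+EtOH, against 62.3 ± 15.3 in LPS. G0s2, an inhibitor of adipose triglyceride lipase, averaged 517 ± 84.6 FPKM in LPS+EtOH, against 108 ± 18.2 in LPS, and Mxd1, a MYC antagonist linked to the end of cell division, averaged 448 ± 57.2 FPKM in LPS+EtOH, against 137 ± 31.3 in LPS. The log2 changes of Asprv1, G0s2 and Mxd1 were 2.84, 2.26 and 1.72. Cebpe, the gene of C/EBPε, was low and had 3.01, 3.71 and 3.57 FPKM in LPS+EtOH, against 1.38, 1.02 and 0.685 FPKM in LPS (log2 change 1.14 ± 0.14 (SE), adjusted p = 1.46e-05). Padi4, which encodes the enzyme that citrullinates histones in neutrophil extracellular traps, had 5.59, 7.35 and 9.68 FPKM in LPS+EtOH, against 6.87, 4.75 and 4.92 FPKM in LPS. Its groups overlapped, and its log2 change of 0.38 had a 95% interval of -0.035 to 0.79 (adjusted p = 0.0808).

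The rise covered a list of 12 genes that macrophages are known to transcribe after LPS as well as the remaining genes. The 12, among them Lcn2, Slpi, Fpr1, Trem1 and G0s2, were all higher in LPS+EtOH, with a median log2 change of 1.997. Of the 19 others tested, 18 were higher, with a median log2 change of 2.62. The difference between these medians was not tested. The list need not be complete, so absence from it, as for S100a8 and S100a9, does not make a gene particular to neutrophils. Within the 34 genes, S100a8 and S100a9 together held 70.8 to 71.5% of the summed FPKM in LPS+EtOH, 44.8 to 48.2% in LPS+CPZ and 54.4 to 57.7% in LPS. Without that pair the other 32 genes held 4.87 to 4.96% of all FPKM in LPS+EtOH, against 0.988 to 1.19% in LPS.

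FPKM divides by the fragments of each library, and most genes tested were lower in LPS+EtOH on this scale. When the libraries were instead scaled to the median ratio over genes, the median log2 change of all genes was -0.01, 39.9% of genes were higher and 40.1% were lower. On that scale all 31 neutrophil genes tested were higher in LPS+EtOH, Padi4 included, with a median log2 change of 3.41. The 4 globin genes, which took 11.5 to 29.4% of the FPKM of the LPS libraries, were left out in a further fit, and the 30 calls held there.

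**Figure D3:**
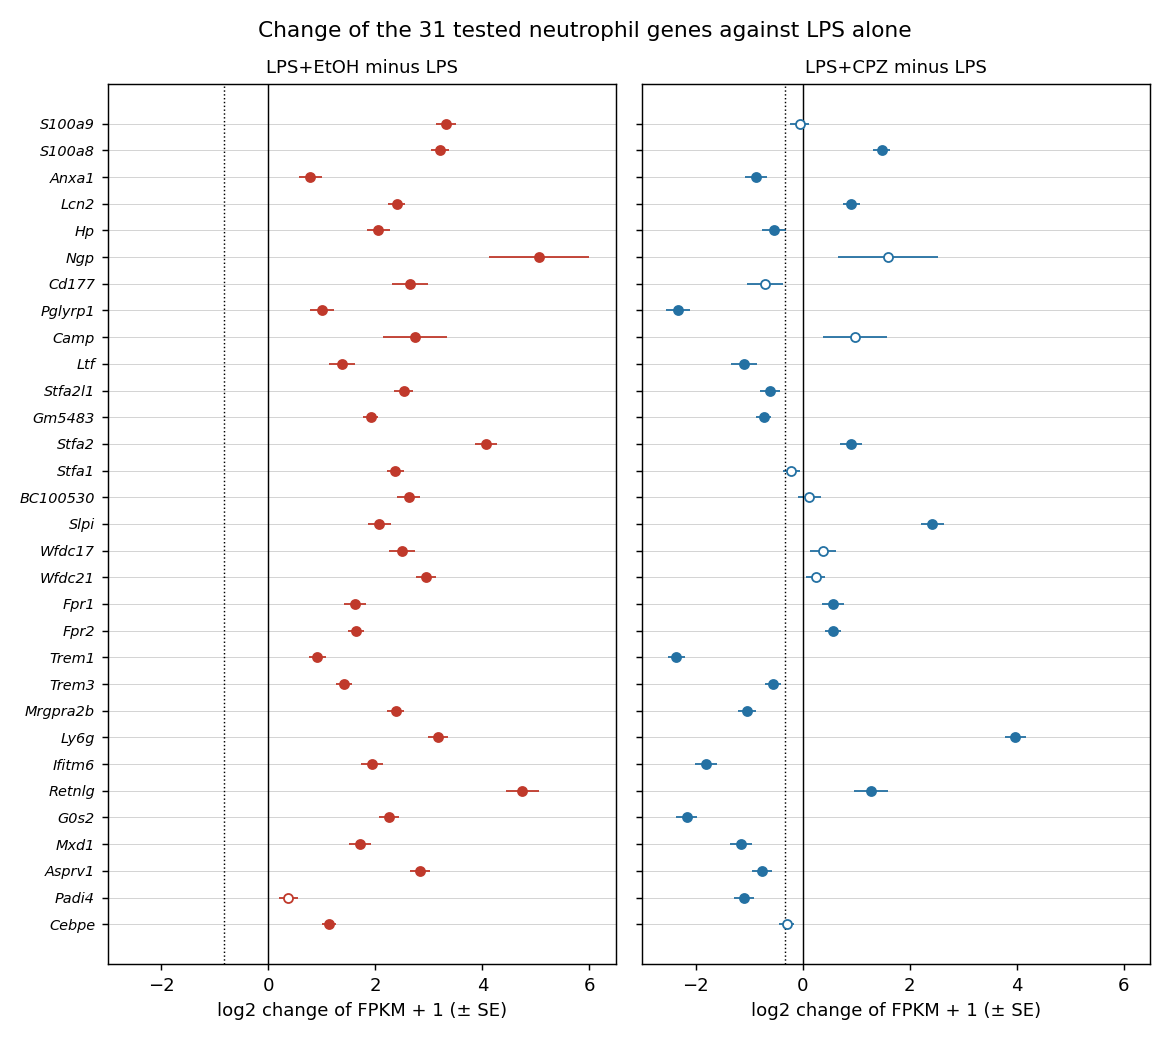
Log2 change of FPKM + 1 with its standard error for the 31 tested neutrophil genes, LPS+EtOH minus LPS on the left and LPS+CPZ minus LPS on the right, with a dotted line at the median of all genes tested. On the left 30 genes lie above 0 beyond the test's threshold; on the right 8 lie above, led by Ly6g at 3.97, and 14 below, led by Trem1 at -2.36. Both panels share the 3 LPS libraries.

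The second comparison asked what CPZ added to LPS-treated cells. Here 8 of the 31 neutrophil genes tested were higher in LPS+CPZ than in LPS, 14 were lower and 9 did not pass the test. Over all genes tested 20.7% were higher and 48.4% lower, so the split was near that of genes in general. The counts by class below describe these genes and are not set against that split. The higher genes were Ly6g, Slpi, S100a8, Retnlg, Lcn2, Stfa2, Fpr2 and Fpr1, and the lower ones included Trem1, Pglyrp1, G0s2 and Ifitm6. The median log2 change of the 31 was -0.30, against -0.33 over all genes tested. Scaled to the median ratio over genes, 10 were higher and 8 lower, where 28.6% of all genes were higher and 32.5% lower. The CPZ libraries lay wholly above the LPS libraries in 8 of the 31 and wholly below in 13, against 22.3% and 50.7% of all genes tested. This comparison shares its LPS libraries with the one above.

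Ly6g showed the largest rise, with 284, 239 and 299 FPKM in LPS+CPZ, against 21.2, 17.6 and 11.8 FPKM in LPS. The lowest CPZ library was more than 10 times the highest LPS library, the means differed 16.2-fold, and the log2 change was 3.97 ± 0.19 (SE), adjusted p = 1.12e-07. The gene belongs to the Ly6 family on chromosome 15, and its closest relative by transcript sequence, Ly6a, was 81.6% identical. Slpi had 2675, 2820.2 and 3716 FPKM in LPS+CPZ, against 684, 651 and 406 FPKM in LPS, a 5.29-fold difference (log2 change 2.42 ± 0.22 (SE), adjusted p = 5.35e-06).

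The calprotectin genes parted in this comparison. S100a8 had 2845, 2579 and 2833 FPKM in LPS+CPZ, against 1073, 835 and 1077 FPKM in LPS (log2 change 1.47 ± 0.16 (SE), adjusted p = 2.16e-05). S100a9 had 3313, 3115 and 3196 FPKM in LPS+CPZ, against 3519, 2759 and 3828 FPKM in LPS, so that the CPZ values lay within the range of the LPS values, and its log2 change of -0.057 had a 95% interval of -0.46 to 0.34 (adjusted p = 0.791). Anxa1 fell to 5.09, 5.40 and 4.68 FPKM in LPS+CPZ, against 14.3, 7.62 and 9.37 FPKM in LPS (log2 change -0.88 ± 0.21 (SE), adjusted p = 0.00353), a call that was lost on the median-ratio scale (-0.54, limma adjusted p = 0.0587) and with quantile scaling (-0.57, limma adjusted p = 0.0543).

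Of the 7 specific granule genes, 1 was higher, 3 were lower and 3 were not called. Lcn2 rose to 1468, 1204 and 1191 FPKM in LPS+CPZ, against 624, 631 and 801 FPKM in LPS (log2 change 0.91 ± 0.16 (SE), adjusted p = 4.99e-04). Pglyrp1 fell to 1.93, 1.88 and 2.92 FPKM in LPS+CPZ, against 18.3, 11.4 and 16.5 FPKM in LPS (log2 change -2.33 ± 0.22 (SE), adjusted p = 7.31e-06). Lcn2 and Pglyrp1 thus lay on opposite sides of LPS, each without overlap. Ltf fell by 1.09 on the log2 scale (adjusted p = 0.00206), whereas the fall of Hp, with a log2 change of -0.53 and adjusted p = 0.0479, was lost in 12 of 22 alternative analyses, where its adjusted p reached 0.537. Cd177 had a log2 change of -0.70 and did not pass (adjusted p = 0.0858), but it was called lower in 4 of 22 alternatives. Without LPS replicate 2 its log2 change was -1.16 (limma adjusted p = 8.37e-04).

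The calls for Ngp and Camp depended on LPS replicate 3. Ngp had 49.8, 52.7 and 48.6 FPKM in LPS+CPZ, against 4.62, 5.56 and 131 FPKM in LPS, and with all libraries its log2 change was 1.60 ± 0.93 (SE), adjusted p = 0.149. Camp had 5.97, 7.64 and 6.25 FPKM in LPS+CPZ, against 0.920, 1.14 and 13.02 FPKM in LPS, with a log2 change of 0.97 ± 0.59 (SE), adjusted p = 0.167. Neither passed the test, and in both the CPZ libraries lay between LPS replicate 3 and the other LPS libraries. Without LPS replicate 3 the log2 change was 3.08 for Ngp (limma adjusted p = 6.91e-07) and 1.90 for Camp (limma adjusted p = 9.58e-06).

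Of the stefin A genes, Stfa2 rose to 3.05, 2.07 and 2.94 FPKM in LPS+CPZ, against 0.640, 0.710 and 1.64 FPKM in LPS (log2 change 0.91, adjusted p = 0.00279). Stfa2l1 and Gm5483 fell, with log2 changes of -0.60 and -0.72 (adjusted p = 0.0141 and 9.85e-04), and Stfa1 and BC100530 did not pass. On the median-ratio scale the falls of Stfa2l1 and Gm5483 were not called, and only the rise of Stfa2 was. Wfdc17 and Wfdc21 had log2 changes of 0.38 and 0.24 and did not pass; both were called higher on the median-ratio scale, at 0.74 and 0.60.

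Of the 7 surface genes 3 were higher and 4 were lower in LPS+CPZ. Trem1 had 35.5, 32.9 and 27.8 FPKM in LPS+CPZ, against 213, 154 and 144 FPKM in LPS, without overlap between the groups (log2 change -2.36 ± 0.16 (SE), adjusted p = 9.07e-07). Ifitm6 had 6.18, 6.94 and 6.03 FPKM in LPS+CPZ, against 34.2, 22.3 and 19.6 FPKM in LPS (log2 change -1.80 ± 0.21 (SE), adjusted p = 2.85e-05). Trem3 and Mrgpra2b fell less, by 0.55 and 1.04 on the log2 scale (adjusted p = 0.00753 and 2.63e-04), and that of Trem3 was not called on the median-ratio scale (-0.19, limma adjusted p = 0.376). The formyl peptide receptors were the other surface genes that rose besides Ly6g, with log2 changes of 0.57 for Fpr1 (adjusted p = 0.0285) and 0.58 for Fpr2 (adjusted p = 0.00558). Neither rise was called when the globin genes were left out, where they came to 0.26 and 0.27, and that of Fpr1 was lost in 6 of 22 alternatives in all. The Fpr2 transcript is 95.8% identical to Gm5966 over 1037 bases, and its fragments may be split with it.

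Of the late genes, Retnlg alone rose, to 247, 279 and 246 FPKM in LPS+CPZ, against 76.5, 76.0 and 199 FPKM in LPS (log2 change 1.28 ± 0.31 (SE), adjusted p = 0.00389), a 2.19-fold difference that was 3.37-fold without LPS replicate 3. G0s2 fell to 23.5, 28.3 and 18.1 FPKM in LPS+CPZ, against 128, 102 and 93.1 FPKM in LPS (log2 change -2.17 ± 0.19 (SE), adjusted p = 4.54e-06). Mxd1, Padi4 and Asprv1 fell as well, with log2 changes of -1.15, -1.09 and -0.76; the fall of Asprv1 was not called on the median-ratio scale (-0.40, limma adjusted p = 0.136). For Padi4, which did not pass in the ethanol comparison, the values were 2.14, 1.73 and 2.22 FPKM in LPS+CPZ, against 6.87, 4.75 and 4.92 FPKM in LPS (adjusted p = 4.13e-04). Cebpe did not pass, with a log2 change of -0.30 (adjusted p = 0.0726). It was called lower in 2 alternatives, at -0.46 without globin genes and -0.42 without LPS replicate 3 (limma adjusted p = 0.0125 and 0.0197). Of the 22 calls in this comparison, 14 held in all 22 alternative analyses that kept the same threshold.

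The relation of the genes to S100a9 within each library does not change when a library is multiplied by a single factor, as FPKM, TPM and median-ratio scaling do. S100a8 stood at 27.8, 25.4 and 28.9% of the S100a9 FPKM in LPS+EtOH, at 85.9, 82.8 and 88.6% in LPS+CPZ and at 30.5, 30.3 and 28.1% in LPS. Ly6g stood at 0.466 ± 0.0348% in LPS+EtOH, 8.53 ± 0.839% in LPS+CPZ and 0.516 ± 0.182% in LPS. The ethanol and LPS libraries thus gave nearly the same share for S100a8 and Ly6g, while the CPZ libraries lay apart. Most other genes had a lower mean share in LPS+EtOH than in LPS. Slpi stood at 7.14 ± 0.277% in LPS+EtOH, 95.9 ± 18.3% in LPS+CPZ and 17.9 ± 6.65% in LPS. Lcn2 stood at 10.8 ± 0.409% in LPS+EtOH, 40.1 ± 3.73% in LPS+CPZ and 20.5 ± 2.61% in LPS. For S100a8, Ly6g, Slpi and Lcn2 every CPZ library lay above every LPS library, and all 4 had also been called higher by limma. An exact two-sided permutation test gave p = 0.1 for each (adjusted p = 0.1 over 4 tests), the smallest value that 3 against 3 libraries allow. That value follows from the lack of overlap alone and adds no support. Fpr1, Fpr2, Retnlg and Stfa2 also lay wholly above in LPS+CPZ and were not tested this way. Trem1 lay below its LPS share in both treated groups, at 0.953 ± 0.0613% in LPS+EtOH, 1.000 ± 0.112% in LPS+CPZ and 5.13 ± 1.21% in LPS. This was common among the genes. Pglyrp1, Anxa1, Mxd1, G0s2, Ifitm6, Mrgpra2b, Ltf, Gm5483 and Padi4 did so too, without overlap. Padi4 stood at 0.0224% in LPS+EtOH, 0.0633% in LPS+CPZ and 0.165% in LPS. Trem3, Asprv1, Stfa2l1, Hp, Cebpe, Cd177 and Stfa1 had lower mean shares in both treated groups, with some libraries overlapping those of LPS. Among the genes tested, only Retnlg, Stfa2, Ngp and BC100530 had a higher mean share in LPS+EtOH than in LPS. The low BC100530 values overlapped between these groups, and the means of Ngp and Camp depend on LPS replicate 3. Ngp stood at 1.51, 1.87 and 1.69% in LPS+EtOH and at 0.131, 0.202 and 3.42% in LPS. Camp stood at 0.0683, 0.0794 and 0.0766% in LPS+EtOH and at 0.0262, 0.0412 and 0.340% in LPS. Retnlg stood at 8.56 ± 0.862% in LPS+EtOH, 8.03 ± 0.799% in LPS+CPZ and 3.38 ± 1.61% in LPS.

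**Figure D4:**
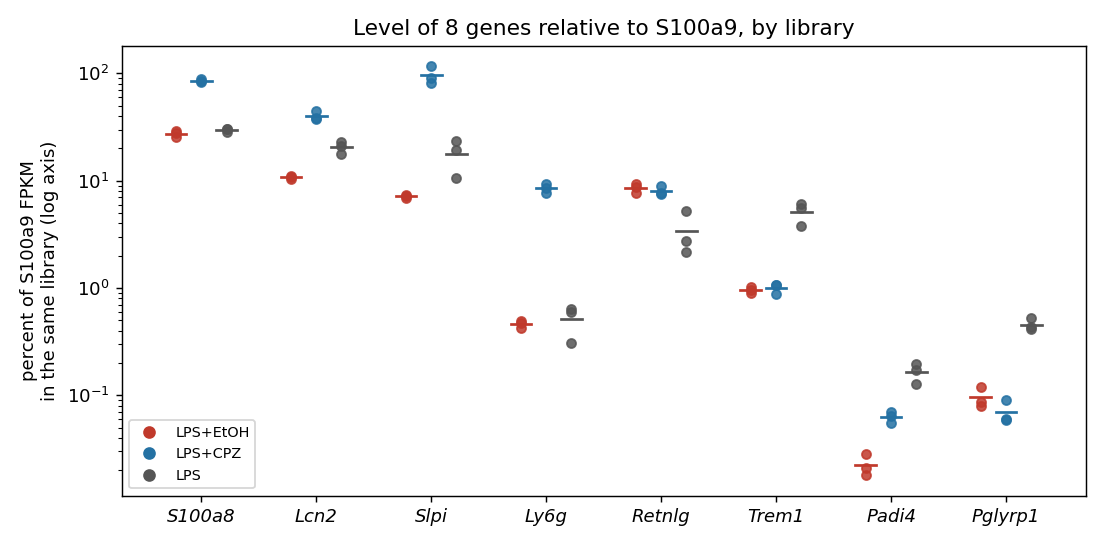
Level of 8 neutrophil genes as a percent of the S100a9 FPKM in the same library (log axis), 1 point per library, coloured by group. S100a8 lies near 30% in LPS+EtOH and LPS and at 85.8 ± 2.93% in LPS+CPZ, and Ly6g lies near 0.5% in LPS+EtOH and LPS and at 8.53 ± 0.839% in LPS+CPZ.

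The third comparison set the treated groups against each other, LPS+CPZ against LPS+EtOH, and shares its libraries with the comparisons above. Of the 31 genes tested 29 were lower in LPS+CPZ, 1 was higher and 1 did not pass, while over all genes tested 15.2% were lower and 61.4% were higher. The median log2 change of the 31 was -2.59, against 0.55 over all genes tested, and for 20 genes the LPS+CPZ mean was at most 0.2 times the LPS+EtOH mean. How many of all genes lay that low was not counted. G0s2 had the largest fall, with 23.5, 28.3 and 18.1 FPKM in LPS+CPZ, against 465, 615 and 471 FPKM in LPS+EtOH (log2 change -4.42 ± 0.19 (SE), adjusted p = 1.14e-07). S100a9 had 3313, 3115 and 3196 FPKM in LPS+CPZ, against 31084, 35025 and 34150.5 FPKM in LPS+EtOH (log2 change -3.38 ± 0.18 (SE), adjusted p = 3.05e-07), and S100a8, with 2845, 2579 and 2833 FPKM in LPS+CPZ, against 8649, 8900.0 and 9875 FPKM in LPS+EtOH, fell less (log2 change -1.73 ± 0.16 (SE), adjusted p = 7.07e-06). Asprv1, Ifitm6, Retnlg, Mrgpra2b and Trem1 fell by 3.59, 3.74, 3.47, 3.42 and 3.27 on the log2 scale. All 7 specific granule genes and all 5 stefin A genes were lower, with median log2 changes of -2.59 and -2.64.

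Ly6g was the gene called higher in LPS+CPZ, with 284, 239 and 299 FPKM in LPS+CPZ, against 147, 150.1 and 169.8 FPKM in LPS+EtOH (log2 change 0.81 ± 0.19 (SE), adjusted p = 0.00285). Scaled to the median ratio over genes its change was -0.019, so its direction between the treated groups depends on the scaling. Slpi had 2675, 2820.2 and 3716 FPKM in LPS+CPZ, against 2289, 2393 and 2468 FPKM in LPS+EtOH, without overlap, and a log2 change of 0.35 with a 95% interval of -0.13 to 0.83 (adjusted p = 0.161); on the median-ratio scale it was -0.48. Groups that did not overlap were seen for 2 genes above and 29 below, against 62.9% and 16.0% of all genes tested. On the median-ratio scale the same comparison had 0 genes higher and 29 lower, where 33.9% of all genes were higher and 33.0% lower.

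A list of 22 further neutrophil genes, of which 16 were tested, gave a view outside the 34. In LPS+EtOH against LPS 13 of these were higher (15 on the median-ratio scale), with a median log2 change of 1.46 over the 16. Of all genes tested 19.0% were higher (39.9% on the median-ratio scale). Chil1, a chitinase-like secreted protein, averaged 964 ± 34.3 FPKM in LPS+EtOH, 274 ± 51.4 in LPS+CPZ and 118 ± 12.0 in LPS, with log2 changes against LPS of 3.03 for ethanol and 1.20 for CPZ. Tarm1, a receptor of T cell-interacting myeloid cells, and Il1r2, the decoy receptor for interleukin 1, rose in LPS+EtOH by 2.54 and 2.36 on the log2 scale. With CPZ against LPS, 4 of the 16 were higher, 6 were lower and 6 did not pass (4 higher and 4 lower on the median-ratio scale). Of all genes tested 20.7% were higher and 48.4% lower (28.6% and 32.5% on the median-ratio scale), so this split was near that of genes in general. Hdc, the histamine-forming enzyme, had the strongest call there and fell to 11.1, 14.6 and 10.6 FPKM in LPS+CPZ, against 139, 113 and 96.6 FPKM in LPS (log2 change -3.15 ± 0.16 (SE), adjusted p = 1.68e-07). Between the treated groups, 12 of the 16 were lower in LPS+CPZ and 4 did not pass, where 15.2% of all genes tested were lower. The genes left out by the filter included Ctsg and Prss57, which belong to primary granules.

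Transcription factors of granulocytes were considered because C/EBP and PU.1 motifs were counted in the promoters. Of 8 tested, 6 were higher and 2 lower in LPS+EtOH against LPS, and 4 were higher and 3 lower in LPS+CPZ against LPS. Over all genes tested 19.0% were higher and 64.6% lower for ethanol, and 20.7% and 48.4% for CPZ. On the median-ratio scale the counts were 7 higher and 0 lower for ethanol, and 4 higher and 1 lower for CPZ. The shares of all genes on that scale were 39.9% and 40.1% for ethanol, and 28.6% and 32.5% for CPZ. Cebpb, the C/EBP factor of emergency granulopoiesis and of LPS-treated macrophages, had 227, 234 and 352 FPKM in LPS+EtOH, 177, 238 and 245 FPKM in LPS+CPZ and 39.4, 32.3 and 20.1 FPKM in LPS. It rose in both against LPS, with log2 changes of 3.13 for ethanol and 2.84 for CPZ (adjusted p = 8.56e-07 and 5.23e-06). Spi1, the gene of PU.1, averaged 209 ± 22.9 FPKM in LPS+EtOH, 73.4 ± 7.74 in LPS+CPZ and 111 ± 20.5 in LPS, higher with ethanol and lower with CPZ (log2 changes 0.92 and -0.57; the fall with CPZ was not called on the median-ratio scale, at -0.22). Gfi1, a repressor needed for neutrophil maturation, fell in both, with log2 changes of -1.33 and -1.75, but its fall with ethanol was not called on the median-ratio scale (-0.35, limma adjusted p = 0.0556). In LPS+CPZ against LPS+EtOH none of the 8 was higher and 5 were lower (7 lower on the median-ratio scale). Of all genes tested 61.4% were higher and 15.2% lower there (33.9% and 33.0% on the median-ratio scale).

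Growth factors and chemoattractants of neutrophils went in both directions. Of 8 tested, 3 were higher and 4 lower in LPS+EtOH against LPS, 3 were higher and 5 lower in LPS+CPZ against LPS, and 4 were higher and 3 lower in LPS+CPZ against LPS+EtOH. Over all genes tested 19.0% were higher and 64.6% lower for ethanol against LPS, and 20.7% and 48.4% for CPZ against LPS. Between the treated groups 61.4% were higher and 15.2% lower in LPS+CPZ. On the median-ratio scale the last pair of member counts turned to 1 higher and 4 lower, and that for ethanol against LPS was 3 higher and 2 lower. The shares of all genes there were 33.9% and 33.0% between the treated groups, and 39.9% and 40.1% for ethanol against LPS. Csf2, which encodes GM-CSF, had 0.228, 0.792 and 0.487 FPKM in LPS+EtOH, 0.928, 1.60 and 0.796 FPKM in LPS+CPZ and 35.5, 29.6 and 43.7 FPKM in LPS, with a log2 change of -4.63 ± 0.20 (SE), adjusted p = 3.49e-08, for ethanol against LPS. Cxcl1 and Cxcl3 encode ligands of CXCR2, the receptor that draws neutrophils into tissue, and in LPS+EtOH Cxcl1 fell and Cxcl3 rose, with log2 changes of -3.49 and 2.27. Cxcl2, a further CXCR2 ligand, averaged 2843 ± 684 FPKM in LPS+EtOH, 4043 ± 351 in LPS+CPZ and 1634 ± 372 in LPS. Csf3, which encodes G-CSF, rose by 0.64 on the log2 scale with ethanol and fell by 0.87 with CPZ.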

How the data were processed

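Strand-specific TruSeq libraries were sequenced on a NovaSeq 6000, per the labels' protocols. The values the authors deposited are FPKM per gene. Tools listed in the submitters' processing notes are FastQC 0.11.2, STAR and StringTie, with no versions for the last pair and no roles. The build in those notes is human hg38, but the gene IDs are of mouse: 55154 of 55335, and all 34 members, were found in GENCODE M21, and the table itself holds no coordinates. FPKM is relative to the fragments of its library, so abundant transcripts lower all others.

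The filter was 1 FPKM or more in 3 or more libraries. Values were compared as log2(FPKM + 1) by limma 3.58.1 under R 4.3.3, with a trended eBayes step and group as sole term over all 9 libraries, after a test on simulated data. This scale understates changes of low genes, and folds are ratios of mean FPKM. Adjusted p-values other than those of the ratios to S100a9 are from limma with Benjamini-Hochberg adjustment over 11721 genes. In alternatives that changed the genes tested, the adjustment ran over those kept, such as 11006 without LPS replicate 3 and 11717 without globin genes. The 34 members, the other gene lists and the tests were chosen with earlier results of these data known, so the counts over members describe them and support no choice of list. Every member is named or counted; of other lists, up to 3 genes with the smallest adjusted p and 1 of the other direction are named, and further genes were named after their values were seen. The result of 1 gene of these lists is not reported here. Genes correlated with S100a9 are not given, because the 9 libraries fall into 3 separate clusters. Transcript identity came from blastn 2.17.0 on GENCODE M21 transcripts, and promoters came from RefSeq GRCm38.p6. Alternatives were other pseudocounts, filters, scalings and fits, and leaving out the globin genes or each library.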

Additional observations from a re-analysis of the deposited data

How the results depend on the processing

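The 30 rises in LPS+EtOH against LPS held under every alternative that kept the gene in the test and required no minimum size. Over all genes, comparisons and alternatives, 2066 of 2136 values for single genes kept their direction and call, 42 lost the call, 19 gained it and 9 changed sign. In LPS+CPZ against LPS, 8 genes were lower on the median-ratio scale and 8 with a log2 change of at least 1 required, against 14, and 4 were higher with that size required, against 8. Over all 11721 genes tested, 3807 were lower on the median-ratio scale. With that size required, 1142 of all genes were higher and 2013 lower. In LPS+CPZ against LPS+EtOH, where 1 gene was higher, the count was 2 without a filter on low values, 2 with quantile scaling, 0 on the median-ratio scale and 0 with a log2 change of at least 1 required. Over all genes, 8579 of 33417 were higher without that filter. Of 11721 genes, 3853 were higher with quantile scaling, 3979 on the median-ratio scale and 2816 with that size required. Leaving out each library in turn gave 30 to 31 genes higher in LPS+EtOH against LPS, 7 to 11 higher and 12 to 15 lower in LPS+CPZ against LPS, and 1 to 2 higher and 28 to 29 lower in LPS+CPZ against LPS+EtOH. The count of 2 came without LPS replicate 3. Over all 10991 to 11557 genes tested in these fits, 1938 to 2208 were higher in LPS+EtOH against LPS. In LPS+CPZ, 2116 to 2401 were higher and 4514 to 5648 lower against LPS, and 6444 to 6904 higher and 1524 to 1797 lower against LPS+EtOH.

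The sign of the change turned for 6 genes. In LPS+CPZ against LPS, S100a9 came to 0.30 on the median-ratio scale and to -0.19 to 0.042 when each library was left out, positive without LPS replicate 3. Stfa1 came to 0.017 on the median-ratio scale and 0.075 with quantile scaling. BC100530 came to -0.0106 without globin genes and to -0.051 to 0.32 when each library was left out, negative without LPS+CPZ replicate 2, and Wfdc21 came to -0.067 without globin genes. In LPS+CPZ against LPS+EtOH, Ly6g came to -0.019 and Slpi to -0.48 on the median-ratio scale. The cause was not tested. Padi4 in LPS+EtOH against LPS was called under 5 alternatives, with 1.41 on the median-ratio scale and 1.17 with quantile scaling.

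Replicate numbers occur in all groups. Deviations of same-numbered libraries correlated at -0.00645 to 0.260, not above 0.1 in every pair, so the numbers were not treated as pairs. Those of differently numbered libraries correlated at -0.204 to 0.127. These ranges overlap and do not settle whether the numbers mark shared material. With the replicate number as a block the counts were unchanged, at 30 higher and 0 lower, 8 higher and 14 lower, and 1 higher and 29 lower in the comparisons in the order of the report. Over all 11721 genes that fit gave 2264 higher and 7607 lower, 2459 and 5697, and 7255 and 1831. Only 2 libraries correlated best with their own number in both other groups.

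Depth is unknown from FPKM, so values under about 1 FPKM, as in Elane, Prtn3, Mpo, BC100530 and Stfa2 in some groups, carry no counting error and their folds are the least certain.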
